A study of Mus with 16 samples.

Results

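The 200 transcripts described here varied least over 16 bulk RNA libraries of mouse epiblast stem cells. Levels are given as CPM, the estimated reads of a transcript per 1000000 reads of its library. Of 116747 transcripts listed in each library, 12082 had a mean log2(CPM + 0.5) between 3 and 7, which is about 7.5 to 127.5 CPM. Within that level window, the 200 with the lowest standard deviation (SD) of log2(CPM + 0.5) over all 16 libraries were taken, or 1.66% of the window. Their low spread is therefore how they were chosen. Any difference between crosses adds to the same SD, so the differences of single members are described by their values. Tests fitted over all transcripts are given near the end as counts, from which nothing about the members is read.

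The cells were F1 hybrids of C57Bl/6J with 4 wild-derived inbred strains, and the crosses CastB6, MolfB6, PwkB6 and SpretB6 had 4 libraries each. Total RNA was depleted of ribosomal RNA before sequencing. The labels give the same growth and treatment for all libraries, and all 4 crosses share the C57Bl/6J parent. Libraries of a cross are numbered in their titles, and the labels do not state whether they came from separate lines, cultures or embryos, so the spread between them may be partly technical. Library totals ran from 42596559 to 72364991 estimated reads.

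Epiblast stem cells are primed pluripotent cells that resemble the epiblast of the embryo after implantation. In an F1 hybrid both parental genomes sit in the same nucleus, so a transcript total adds the output of both alleles. Transcripts with an even level across lines are of use as references, since a measurement of another transcript is commonly set against them. Such references are often sought among genes for basic cell functions. The level of a transcript within a library total also depends on all other transcripts in the library, so evenness always refers to a chosen scale.

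The tables name transcripts by Ensembl transcript ID, whereas the gene table at hand lists none of them, and 0 were matched to a gene. No gene name, role or genome position is therefore given for any member, and the markers of epiblast stem cells were not analysed here. Values are given for transcripts. A member may be 1 of several transcripts of its gene, and its level then also depends on how shared reads were divided. Only 4 of the 200 members, and 135 of the other 11882 transcripts of the window, had estimates no further than 0.001 from a whole number in each library, as a transcript that shares no reads would have.

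The library PwkB6 6 stood apart from the other 15 before any comparison of members. Transcripts longer than 4000 bases took 32.1% of its reads, against 21.9% to 25.4% in the other 15 libraries. Transcripts of up to 1000 bases took 16.5% of its reads, against 19.8% to 23.1% in the others. Values that moved most with this library are also given without it.

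The median SD of the members was 0.101, with an interquartile range of 0.0915 to 0.109 and extremes of 0.0501 and 0.115. The rest of the window had a median SD of 0.301. In each of the 200 members the highest library was less than 1.5 times the lowest, which held for 971 of the 11882 others (8.17%). The ratio was under 1.3 in 121 members and under 1.2 in 10. Without PwkB6 6, the median SD of the same 200 transcripts was 0.0946, against 0.275 in the rest of the window.

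**Figure D1:**
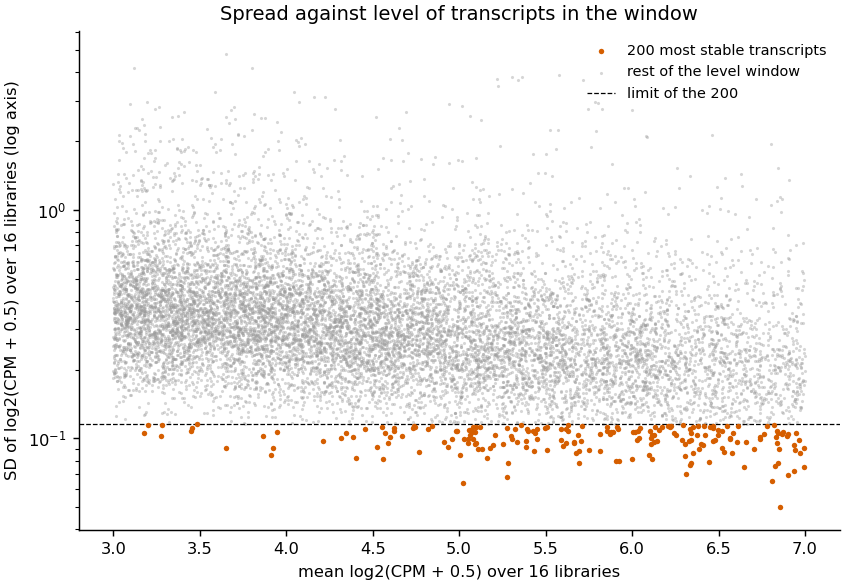
Each point is a transcript of the level window, with its mean log2(CPM + 0.5) on the x axis and its SD over 16 libraries on a logarithmic y axis. The 200 members lie under the dashed limit at 0.115, at all levels from 3.18 to 6.99 but more densely at the upper end.

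ENSMUST00000059914.13, of 6506 bases, had the lowest SD, 0.0501. The transcript stood at 120.0, 118.2, 116.6 and 117.8 CPM in CastB6 1, 3, 5 and 6, and at 111.3, 109.9, 115.1 and 109.2 CPM in MolfB6 1, 2, 3 and 6. In PwkB6 1, 3, 5 and 6 it had 119.4, 117.9, 115.3 and 122.6 CPM, and in SpretB6 1, 3, 5 and 6 it had 117.8, 112.0, 113.0 and 110.7 CPM. The highest library, PwkB6 6, was 1.12 times the lowest, MolfB6 6, the smallest such ratio among the members. All 4 CastB6 libraries lay above all 4 MolfB6 libraries even here, while the other crosses overlapped with both or with one of them.

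ENSMUST00000026991.16, of 1748 bases, came next with an SD of 0.0637. Its CPM were 30.1, 30.2, 34.0 and 31.3 in CastB6, 33.4, 31.8, 32.9 and 34.1 in MolfB6, 32.9, 31.8, 31.9 and 29.7 in PwkB6 and 30.7, 32.2, 31.0 and 33.8 in SpretB6. The 4 crosses overlapped, and 21.4% of its variance lay between them.

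ENSMUST00000022976.6, of 4033 bases, stood at 120.8, 115.3, 114.6 and 116.3 CPM in CastB6, at 107.4, 105.6, 111.3 and 107.8 CPM in MolfB6, at 105.3, 115.8, 111.1 and 115.7 CPM in PwkB6 and at 114.7, 115.4, 109.9 and 102.6 CPM in SpretB6. Its SD was 0.065, and the CastB6 libraries again lay above those of MolfB6. ENSMUST00000022536.3, of 2260 bases, averaged 37.9 ± 1.16 CPM in the CastB6 libraries, 38.0 ± 2.79 in those of MolfB6, 38.4 ± 0.728 in those of PwkB6 and 39.1 ± 2.39 in those of SpretB6 (SD, n = 4 each). Only 7.5% of its variance lay between crosses. ENSMUST00000219915.2, of 2733 bases, averaged 120.6 ± 5.39 CPM for CastB6, 116.3 ± 5.25 for MolfB6, 119.2 ± 8.42 for PwkB6 and 120.3 ± 5.03 for SpretB6 (SD, n = 4 each). In that transcript single libraries, not crosses, were high. The highest were 128.7 CPM in CastB6 3, 127.6 in PwkB6 3, 127.6 in SpretB6 6, 125.3 in PwkB6 1 and 124.2 in MolfB6 2.

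ENSMUST00000022189.9, of 3249 bases, had the sixth lowest SD, 0.0702, yet SpretB6 was apart from the other crosses. Its CPM were 83.6, 85.8, 82.8 and 85.8 in the SpretB6 libraries, against 71.3 to 80.5 in the 12 others. The SpretB6 libraries lay above all others, by 0.13 on the log2 scale from the mean of the other 3 crosses. A place among the most even transcripts thus did not require that the crosses overlap.

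**Figure D2:**
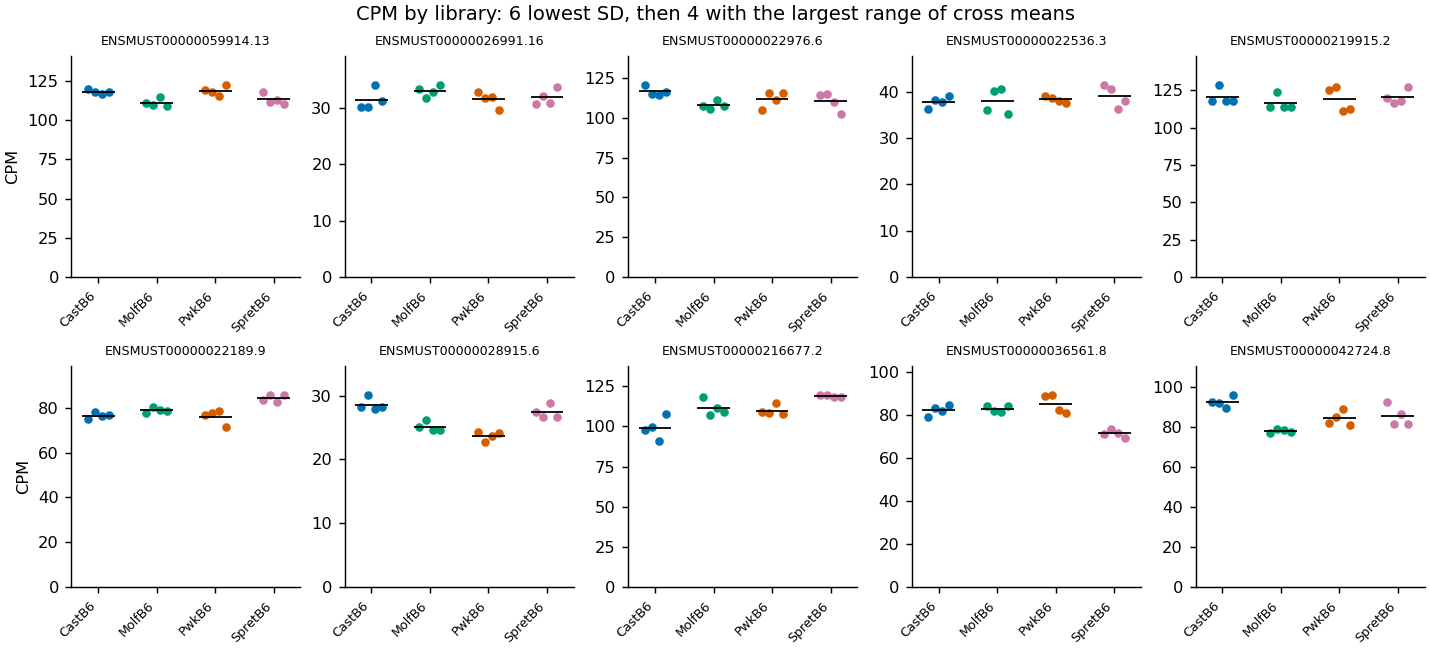
CPM of 10 members by library (points, 4 per cross) with the mean of each cross (line), on axes that start at 0. The first 6 panels hold the members of lowest SD and the last 4 those with the largest range of cross means, where the crosses are visibly shifted although the highest library is at most 1.32 times the lowest in them.

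The limit of 200 cut through closely spaced values. The last members inside, ENSMUST00000096053.5, ENSMUST00000053593.8 and ENSMUST00000137874.2, had SDs of 0.1148, 0.1149 and 0.1151, and the first outside, ENSMUST00000096751.11, ENSMUST00000028398.14 and ENSMUST00000103075.11, had 0.1152, 0.1152 and 0.1154. The evenness of ENSMUST00000096053.5 was broken by 1 library, with 140.7 CPM in PwkB6 6 against 99.5 to 119.7 CPM in the other 15. In ENSMUST00000137874.2, of 620 bases, the same library was the lowest, with 8.78 CPM against 9.90 to 12.3 CPM elsewhere.

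Members sat high in the window. Their median level was 57.5 CPM, or 3531 reads per library, against 21.9 CPM and 1338 reads in the rest of the window. They made up 0.274% of the transcripts with a mean between 3 and 4 on the log2 scale (12 of 4384), 0.739% between 4 and 5 (26 of 3516), 2.72% between 5 and 6 (70 of 2571) and 5.71% between 6 and 7 (92 of 1611). The median SD of the whole window fell with level too, from 0.357 between 3 and 4 to 0.220 between 6 and 7. Counting error also falls with level, and its part in these shares was not tested. From the reads alone, the SD expected from counting was 0.0247 at the median in members and 0.0419 in the rest. The observed SD was 3.91 times the counting SD at the median in members, from 1.65 to 6.51 times, and 7.52 times in the rest of the window. The choice limits the observed SD of members, so nothing is read from their lower ratio. The members nearest to counting error were ENSMUST00000107201.9 at 1.65 times and ENSMUST00000162397.3 at 1.66 times, both with under 10 CPM. Counting error covers the draw of reads only and not the division of shared reads.

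Per length, members differed widely in level. Their median was 21.6 TPM, a scale that divides reads by effective length (the length less a correction for fragment size), with an interquartile range of 13.0 to 34.6, against 11.7 TPM in the rest. ENSMUST00000122170.2, the shortest member with 192 bases, was the most abundant at 1587 ± 88.7 TPM (SD, n = 16), and ENSMUST00000201768.2, with 459 bases, followed at 367.9 ± 18.6 TPM. The effective length of the first was only 55.9 to 58.0 bases over the libraries, and that of the second 304.3 to 313.1 bases, so the TPM of such short transcripts is much higher than reads over full length would give. The lowest were ENSMUST00000097432.10, of 4007 bases, at 2.73 ± 0.279 TPM and ENSMUST00000162175.9, of 12699 bases, at 3.69 ± 0.299 TPM (SD, n = 16 each). ENSMUST00000162175.9 ran from 35.1 to 42.7 CPM. Together the 200 members took 12237 ± 188.5 CPM of a library (SD, n = 16), with 12312 ± 115.9 CPM for SpretB6, 12298 ± 148.6 for CastB6, 12181 ± 314.0 for PwkB6 and 12159 ± 137.5 for MolfB6 (SD, n = 4 each).

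Length was no part of the rule, and it was longer in members by the median on this scale. The median member had 3250 bases, against 2738 in the rest of the window. The share of members was highest at 4000 to 8000 bases, where 2.49% of the window were members (73 of 2930), compared with 1.10% of those up to 1000 bases (20 of 1811), 0.924% from 1000 to 2000 (22 of 2381), 1.77% from 2000 to 4000 (78 of 4408) and 1.27% above 8000 (7 of 552). Without PwkB6 6 the shares taken were 1.62% at 4000 to 8000 bases (47 of 2904), 1.59% up to 1000, 1.76% from 1000 to 2000, 1.78% from 2000 to 4000 and 0.737% above 8000, so the peak at 4000 to 8000 bases was not kept. The 3 longest members were ENSMUST00000162175.9, ENSMUST00000141755.8 with 12584 bases and ENSMUST00000005108.10 with 10944 bases. The last of these was the eighth most even transcript, at 91.2 to 108.7 CPM.

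In the choice over all 16 libraries, the direction of the length difference changed with level. Lengths by level were not computed without PwkB6 6. Between 6 and 7 on the log2 scale, members had a median of 3957 bases against 2966 in the rest, and between 5 and 6 they had 3284 against 2916. Between 4 and 5 the medians were 2707 and 2812. Between 3 and 4 the 12 members had a median of 815 bases, against 2476 in the rest. Of these 12, 9 had up to 1000 bases (75%), against 774 of the 4372 others in that level range (17.7%). ENSMUST00000166857.2, of 397 bases, was the most even of them with an SD of 0.0847, at 13.1 to 16.5 CPM. All 12 had SDs of 1.65 to 2.20 times counting error. The limit on the SD of members keeps this ratio low at these levels, where counting error is largest.

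The length of the most even transcripts also depended on the scale. When evenness was measured on log2(TPM + 0.5) in the same window, the 200 lowest had a median of 2340 bases, under the window's 2744. With the trimmed mean of M values (TMM, which scales libraries so that most transcripts keep their level), the median was 4454 bases. Without PwkB6 6 and with library totals it was 2689 bases, under the window's 2737 in those 15 libraries. The longer length of the members was therefore not kept on every scale or without that library.

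The library PwkB6 6 was the lowest of the 16 in 63 members (31.5%) and the highest in 22 (11%). Over the whole window it was the lowest in 18.7% and the highest in 23.8%. An even share would be 6.25% each. MolfB6 2 was next among the lowest libraries, with 19 members, and PwkB6 3 matched PwkB6 6 among the highest with 22. The median deviation of members from their own mean was -0.067 in PwkB6 6 and lay between -0.0218 and 0.0322 in the other 15 libraries.

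**Figure D3:**
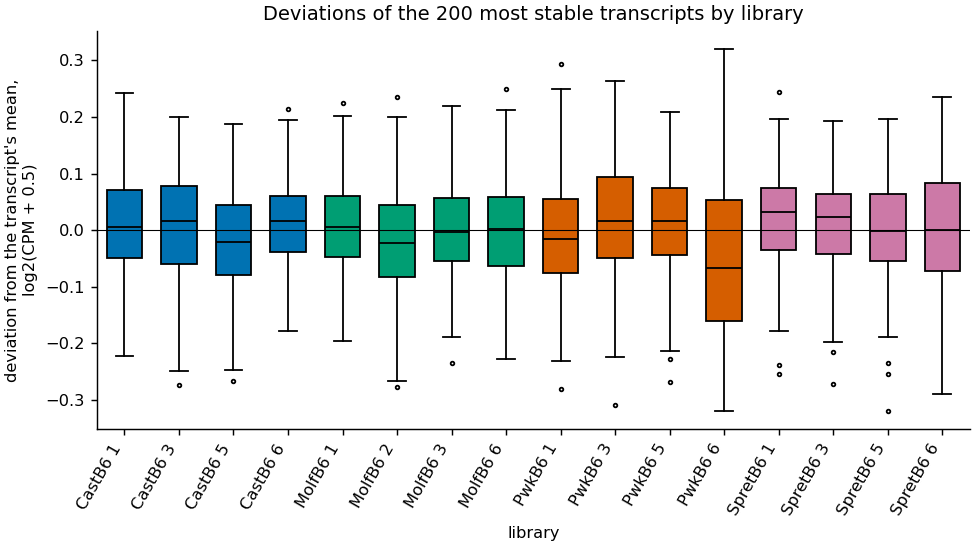
Deviation of log2(CPM + 0.5) from the transcript's mean for the 200 members in each library; boxes show the median and the quartiles, whiskers reach 1.5 interquartile ranges and colours mark crosses. PwkB6 6 has the lowest median, -0.067, and the widest box.

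Length and this library moved together. In PwkB6 6 the rest of the window deviated by a median of -0.27 for transcripts up to 1000 bases, -0.18 from 1000 to 2000, 0.03 from 2000 to 4000 and 0.43 above 4000 bases, whereas the other 15 libraries stayed between -0.19 and 0.09 in every one of these classes. For the members of the same classes the medians in PwkB6 6 were -0.14 (n = 20), -0.13 (n = 22), -0.10 (n = 78) and -0.0090 (n = 80). The long members did not share the excess of long transcripts in this library, as a low SD over all 16 libraries requires. What gives the library its excess of long transcripts was not tested.

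The 4 crosses differed little in the members, as the choice requires. The range of the 4 cross means had a median of 0.135 on the log2 scale in members, from 0.0122 to 0.266, against 0.445 in the rest of the window. It was under 0.1 in 54 members and over 0.2 in 25. The share of a member's variance that lay between crosses had a median of 31.1%, from 0.224% to 86.6%, against 39.0% in the rest of the window. A share of 20% corresponds to crosses no more apart than libraries within a cross. More than 50% lay between crosses in 44 members (22.0%), against 34.3% of the rest.

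In ENSMUST00000028915.6, of 2170 bases, 86.6% of the variance lay between crosses, the highest share of any member. Its libraries had 28.2, 30.1, 27.9 and 28.2 CPM in CastB6, 25.2, 26.2, 24.7 and 24.7 in MolfB6, 24.4, 22.8, 23.6 and 24.2 in PwkB6, and 27.4, 26.7, 28.8 and 26.7 in SpretB6. CastB6 was 0.17 above and PwkB6 0.18 below the mean of the other 3 crosses on the log2 scale, and all PwkB6 libraries lay below all 12 others. Under TMM these differences were 0.29 and -0.30, and on TPM 0.14 and -0.11. CastB6 and SpretB6 overlapped.

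ENSMUST00000216677.2, of 5149 bases, had the widest range of cross means, 0.266, with 97.6, 99.4, 90.9 and 107.9 CPM in CastB6, 118.5, 107.2, 111.2 and 108.7 in MolfB6, 108.7, 108.3, 114.7 and 107.6 in PwkB6 and 119.5, 119.6, 118.2 and 118.2 in SpretB6. CastB6 was 0.20 below the mean of the other 3 crosses by library totals, with differences of -0.078 under TMM and -0.22 on TPM, and CastB6 6 alone reached into the ranges of MolfB6 and PwkB6. ENSMUST00000042724.8, of 4707 bases, had 77.2, 79.0, 78.5 and 77.7 CPM in MolfB6, against 81.3 to 96.3 CPM in the 12 others. Its CastB6 libraries, at 89.7 to 96.3 CPM, lay above those of MolfB6 and PwkB6 and overlapped with SpretB6, where SpretB6 1 had 92.8 CPM.

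By library totals the widest single difference belonged to SpretB6, whereas under TMM it was that of ENSMUST00000028119.7 in PwkB6, -0.31. ENSMUST00000036561.8, of 3845 bases, had 71.2, 73.3, 71.5 and 69.5 CPM in SpretB6, against 79.1 to 89.3 CPM in the 12 other libraries. SpretB6 was 0.22 below the mean of the other 3 crosses, with no overlap. In the other direction, ENSMUST00000114426.10, of 2187 bases, had 125.3, 121.8, 128.0 and 124.1 CPM in SpretB6, against 98.8 to 118.7 CPM elsewhere, a difference of 0.17.

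For MolfB6 the extremes were ENSMUST00000170693.9, of 2480 bases, and ENSMUST00000045296.6, of 1968 bases. The first had 83.7, 89.2, 83.5 and 87.3 CPM in MolfB6, against 91.0 to 106.6 CPM in the 12 others, a log2 difference of -0.20. The second had 30.1, 33.3, 30.1 and 29.8 CPM in MolfB6, against 24.9 to 30.1 CPM in the others, a difference of 0.17 with overlap. For PwkB6, ENSMUST00000166075.8, of 1582 bases, had 109.3, 107.6, 107.9 and 112.5 CPM, against 90.2 to 108.0 CPM in the others, a difference of 0.16 by library totals, 0.042 under TMM and 0.23 on TPM. ENSMUST00000028119.7, of 5590 bases, had 72.1, 62.8, 75.9 and 72.2 CPM in PwkB6, against 75.1 to 85.7 CPM in the others, a difference of -0.19 by library totals, -0.31 under TMM and -0.11 on TPM. Both PwkB6 examples overlapped slightly with other crosses.

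At the other extreme, the cross means of ENSMUST00000022371.10, of 1770 bases, spanned 0.0122, with 32.1 ± 0.939 CPM for CastB6, 32.4 ± 3.02 for MolfB6, 32.2 ± 3.85 for PwkB6 and 32.0 ± 1.17 for SpretB6 (SD, n = 4 each). ENSMUST00000162175.9 followed with 0.017. In these members nearly all the variance lay within crosses. The widest ranges within a cross were both in PwkB6. ENSMUST00000134585.8 had 107.9, 134.2, 117.7 and 96.8 CPM there, and ENSMUST00000034164.6 had 60.2, 69.4, 54.9 and 49.5 CPM. PwkB6 3 was the highest and PwkB6 6 the lowest library in both.

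Members in which the 4 libraries of a cross did not overlap with the 12 others were few. SpretB6 lay above all others in 4 members and below in 5, where 4.4% and 2.37% of the window did. CastB6 lay above in 2 and below in 2 (window 1.77% and 1.5%), and MolfB6 above in 1 and below in 3 (window 1.3% and 0.902%). PwkB6 lay above in 0 and below in 2 members (window 1.03% and 0.745%). Since the choice limits such differences, nothing is read from these counts beside the window's. The SpretB6 members above were ENSMUST00000022189.9, ENSMUST00000035606.10, ENSMUST00000215998.2 and ENSMUST00000114426.10, of which ENSMUST00000035606.10 had 130.5 to 136.4 CPM in SpretB6, against 110.7 to 127.5 CPM elsewhere. The SpretB6 member furthest below after ENSMUST00000036561.8 was ENSMUST00000042732.6, with 35.6 to 43.1 CPM in SpretB6, against 44.7 to 48.5 CPM in the others. ENSMUST00000035606.10, ENSMUST00000215998.2 and ENSMUST00000042732.6 were named after their values were seen. ENSMUST00000107201.9, ENSMUST00000162397.3 and ENSMUST00000031091.13 are likewise named outside the rule for named transcripts.

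Spread within a cross differed between crosses in members as in the window. The median SD among the 4 libraries was 0.0641 in SpretB6, 0.0689 in CastB6, 0.0738 in MolfB6 and 0.113 in PwkB6 for members, and 0.149, 0.213, 0.186 and 0.300 in the same crosses for the rest of the window. SpretB6 had the lowest and PwkB6 the highest median in both, while CastB6 and MolfB6 changed places. Without PwkB6 6 the PwkB6 median was 0.0789 in members and 0.234 in the rest, so the gap between PwkB6 and the other crosses in members rested largely on that library.

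A choice made on 3 crosses could be read in libraries that it had not used. With the same rule on the 12 libraries of the other crosses, the 200 chosen transcripts had a median SD within the cross left out of 0.0924 for CastB6, 0.0883 for MolfB6, 0.166 for PwkB6 and 0.0754 for SpretB6. For the rest of each window these medians were 0.214, 0.185, 0.299 and 0.149. The chosen transcripts had the lower median in each of the 4 cases. Level differed between chosen transcripts and the rest, and with levels limited to 6 to 7 on the log2 scale the medians were 0.0836 against 0.154 in CastB6, 0.0792 against 0.140 in MolfB6, 0.157 against 0.241 in PwkB6 and 0.0700 against 0.105 in SpretB6. Without PwkB6 6 the PwkB6 medians over all levels were 0.0943 in chosen transcripts and 0.234 in the rest, and at levels of 6 to 7 they were 0.0931 and 0.174. No test was run, as transcripts of 1 library are not independent.

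**Figure D4:**
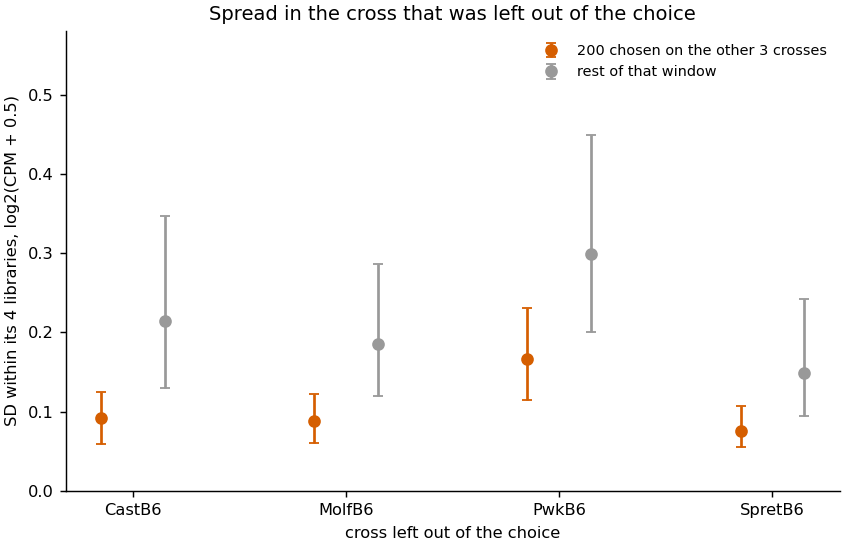
Median (point) and quartiles (bars) of the SD within the 4 libraries of the cross left out, for the 200 transcripts chosen on the other 3 crosses and for the rest of that level window. The chosen transcripts have the lower median in each cross, from 0.0754 in SpretB6 to 0.166 in PwkB6.

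The level in the cross left out also stayed close to that in the 12 libraries that chose. The size of the shift had a median of 0.10 for CastB6, 0.090 for MolfB6, 0.10 for PwkB6 and 0.13 for SpretB6 on the log2 scale, against 0.19, 0.15, 0.19 and 0.18 for the rest of each window. With levels limited to 6 to 7 the medians were 0.10 against 0.13 for CastB6, 0.078 against 0.12 for MolfB6, 0.10 against 0.15 for PwkB6 and 0.12 against 0.14 for SpretB6, a smaller gap. Without PwkB6 6 the PwkB6 medians over all levels were 0.10 and 0.16. At levels of 6 to 7 without that library they were 0.105 and 0.117, so little of the gap in PwkB6 remained. Shifts over 0.2 occurred in 33 of the 200 chosen for CastB6 (16.5%), 35 for MolfB6 (17.5%), 51 for PwkB6 (25.5%) and 58 for SpretB6 (29.0%). In the rest of each window 47.7%, 37.6%, 48.7% and 46.1% shifted that much. None of the 200 chosen shifted by over 1. In the rest 358 of 12046 did for CastB6, 222 of 11860 for MolfB6, 366 of 11794 for PwkB6 and 372 of 11869 for SpretB6. With levels limited to 6 to 7 these were 30 of 1546, 21 of 1547, 29 of 1510 and 20 of 1517. Such shifts were thus rare in the rest as well. An even level in 3 crosses was still no guarantee, as single chosen transcripts shifted by up to 0.86 for CastB6, 0.86 for MolfB6, 0.95 for PwkB6 and 0.79 for SpretB6. Of the 200, 124 were also members when CastB6 was left out, 126 for MolfB6, 96 for PwkB6 and 124 for SpretB6, and 51 members were chosen in all 4 cases. Among the 51 were ENSMUST00000059914.13, ENSMUST00000026991.16, ENSMUST00000022976.6, ENSMUST00000022536.3, ENSMUST00000219915.2 and ENSMUST00000022189.9, the 6 members of lowest SD. The members and each choice share 12 libraries, so this overlap is no independent check of the members. A low SD over all 16 libraries also limits the SD over any 12 of them, which fixed the place of these 6.

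The scale set which cross was high in the members. By library totals the members were centred, with 97 of 200 above the mean of the other 3 crosses for CastB6, 99 for MolfB6, 94 for PwkB6 and 114 for SpretB6. TMM changed the library sizes by factors from 0.879 in CastB6 5 to 1.19 in PwkB6 6, and the rest of the window then had a median deviation of 0.13 in CastB6 5 and -0.21 in PwkB6 6. Under TMM 194 of the 200 members were higher in CastB6, with a median difference of 0.12, and 6 were higher in PwkB6, with a median of -0.13. The rest of the window moved the same way, with medians of 0.060 in CastB6 and -0.082 in PwkB6. TMM adds nearly the same amount to every transcript of a cross, and the members were chosen close to 0 by library totals, so such counts follow from the factors and add no evidence on a cross. For MolfB6 the count of members above was 91 under TMM and 57 on TPM, and for SpretB6 it was 119 and 107. CastB6 had 75 members above on TPM.

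**Figure D5:**
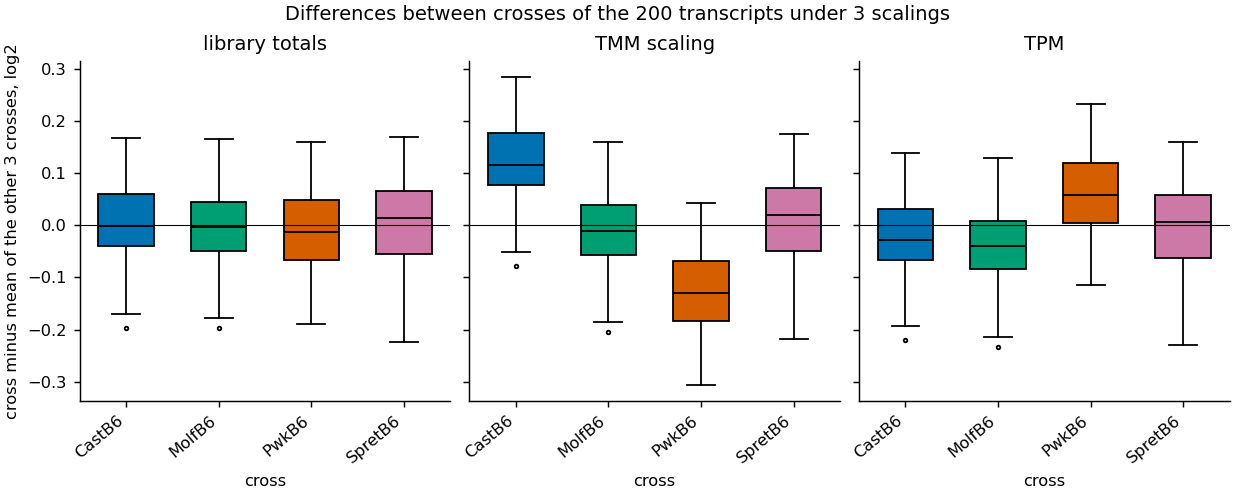
Difference of each cross from the mean of the other 3 crosses in log2 for the 200 members, by library totals with log2(CPM + 0.5), by TMM-scaled CPM and by log2(TPM + 0.5). Boxes show the median and quartiles; CastB6 moves to a median of 0.12 and PwkB6 to -0.13 under TMM, and PwkB6 to 0.058 on TPM.

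On TPM PwkB6 lay on the other side, with 158 of 200 members above the mean of the other 3 crosses and a median of 0.058, against 0.10 in the rest of the window. Without PwkB6 6, 54 members were above under TMM and 123 on TPM, so the shifts of PwkB6 were smaller but kept their opposite signs, with medians of -0.055 and 0.024, against -0.050 and 0.029 in the rest of the window. CastB6 kept 178 members above under TMM without that library, with a median of 0.097. TPM, like TMM, moved most members of a cross by a similar amount. The counts and signs on TPM therefore add no evidence on a cross either.

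The tests over all transcripts carried the same dependence. With TMM, the edgeR quasi-likelihood joint test of the 4 crosses called 6 of the 200 members at an adjusted p under 0.05 (3%), against 9.73% of the 56721 transcripts tested and 16.7% of the window. For CastB6 against the other 3 crosses 9 members were called, all higher. Among all transcripts tested 4.52% were called there, 2.84% higher and 1.68% lower, and in the window 8.2%, 6.15% higher and 2.05% lower. In PwkB6 2 members were called, both lower, ENSMUST00000028915.6 and ENSMUST00000028119.7. Of all transcripts tested 3.04% were called in PwkB6, 1.5% higher and 1.54% lower, and of the window 5.48%, 2.04% higher and 3.43% lower.

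In MolfB6 edgeR called 0 members, with 9 of 200 at an unadjusted p under 0.05, against 13.0% of all transcripts tested, and DESeq2 called 5. There edgeR called 2.57% of all transcripts tested, 1.37% higher and 1.2% lower, and 4.27% of the window, 2.04% higher and 2.23% lower. In SpretB6 edgeR also called 0 members, with 16 of 200 at an unadjusted p under 0.05, against 18.8% of all transcripts tested, and DESeq2 called 6. There edgeR called 7.1% of all transcripts tested, 4.32% higher and 2.78% lower, and 10.5% of the window, 5.71% higher and 4.83% lower. DESeq2 called 41 members in the joint test (20.5%), 35 in CastB6 (17.5%, all higher) and 22 in PwkB6 (11%, all lower). Its 5 calls in MolfB6 were 2.5% of the members and its 6 in SpretB6 were 3%. Over all transcripts tested DESeq2 called 19.4% jointly, 9.73% for CastB6, 5.99% for MolfB6, 8.3% for PwkB6 and 11.6% for SpretB6. Differences between crosses add to the SD that chose the members, so nothing about the members is read from these counts.

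With library totals in place of TMM, edgeR called 4 members jointly, where 10.2% of all transcripts tested were called. By cross, the calls were 1 lower in CastB6 (4.26% of all tested called), 1 lower in MolfB6 (2.84%) and 4 lower in SpretB6 (7.5%). In PwkB6 edgeR with library totals called 0 members (3.73% of all tested), with 16 of 200 at an unadjusted p under 0.05, against 19.9% of all transcripts tested. The 22 calls of DESeq2 there used its own size factors. All these counts also depended on single libraries. The 9 CastB6 calls became 2 without CastB6 5, 3 without CastB6 3, 4 without CastB6 1, and 5 without CastB6 6, MolfB6 6, SpretB6 1 or SpretB6 3, and they became 14 without PwkB6 5, 15 without MolfB6 2 and 16 without PwkB6 6. Over all transcripts tested the share called in CastB6 moved as well, between 2.25% without CastB6 5 and 5.43% without PwkB6 6. The 2 PwkB6 calls became 0 without PwkB6 1 or PwkB6 6, 1 without PwkB6 3 and 5 without PwkB6 5, where 1.66%, 1.99%, 3.09% and 5.16% of all transcripts tested were called. The 6 joint calls became 3 without CastB6 3 or CastB6 5, and 10 without MolfB6 2 or PwkB6 6, where 8.02%, 7.12%, 8.87% and 10.4% of all tested were called. In SpretB6 5 members were called without PwkB6 6, all lower (7.99% of all tested called), and in MolfB6 1 without MolfB6 2 (1.89%).

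Membership itself followed the scale. Of the 200 transcripts with the lowest SD under TMM, 62 were members (31.0% of either list), and the median member took place 360.5 of the window there. The most even transcript by totals, ENSMUST00000059914.13, held place 30 under TMM with an SD of 0.0973, while ENSMUST00000219915.2 held place 398 with 0.146. The first place under TMM belonged to ENSMUST00000031091.13, of 6677 bases, with an SD of 0.072, which by totals held place 276 with 0.121. ENSMUST00000103075.11, the third transcript outside the limit by totals, was the third most even under TMM with an SD of 0.0789. On TPM 98 of the 200 lowest were members, and without PwkB6 6 121 were.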

How the data were processed

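Each of the 16 libraries had 1 table of transcript abundances. Per the file headers the deposited columns give length, effective length, TPM and estimated counts (reads per transcript, divided among transcripts where they match several). Per the submitters' processing notes Salmon, DESeq2 and the build mm10 were used. Versions and the transcript set: not given in the sources used here. The deposited TPM values divide by effective length and have a fixed sum per library. How reads with variants of the wild-derived parent were matched is not stated.

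CPM were computed from estimated counts and their library total, with a pseudocount of 0.5 CPM. For the tests, estimated counts were rounded to whole numbers. The tests used edgeR 4.0.16 (R 4.3.3; filterByExpr, min.count 10, min.total.count 15; TMM; quasi-likelihood F tests over all 16 libraries, Benjamini-Hochberg adjustment over 56721 transcripts, threshold 0.05); DESeq2 1.42.0 was the alternative. The scripts' statistics were tested on simulated data. No replicate pair agreed within counting error: the smallest variance ratio was 12.2. The members, the rule for named transcripts (lowest and limiting SD, length and TPM extremes, extremes per cross) and the lists were chosen with earlier results of these data known. The planned gene lists and markers were not used, as no ID had a gene name.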

Additional observations from a re-analysis of the deposited data

Results flagged for a closer look

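A library far from the other 3 of its cross was sought in 144 groups of 4 libraries, over the CPM of named transcripts, the members' sums and medians, TMM factors and library totals. There were 7 such groups, and a rate of 1 in 20 would give 7.2. ENSMUST00000219915.2 stood at 128.7 CPM in CastB6 3, against 117.7 to 118.2 in the other CastB6 libraries, and at 124.2 CPM in MolfB6 2, against 113.6 to 113.8 in the other MolfB6 libraries. MolfB6 2 was also apart in ENSMUST00000141755.8, at 58.7 CPM against 66.7 to 68.1, and in ENSMUST00000045296.6, at 33.3 CPM against 29.8 to 30.1. PwkB6 5 had 40.7 CPM of ENSMUST00000162175.9, against 37.8 to 38.1, and 114.7 CPM of ENSMUST00000216677.2, against 107.6 to 108.7. CastB6 3 had 30.1 CPM of ENSMUST00000028915.6, against 27.9 to 28.2 in the other CastB6 libraries. No explanation was tested.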

How the results depend on the processing

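Of the 200 members, 196 and 197 were kept with pseudocounts of 1 and 0.1, 157 with the window 2 to 8 and 150 by range. Fewer were shared with DESeq2 size factors (50), TMM (62), TPM (98), the SD within crosses (88), the median absolute deviation (85), the window 4 to 6 (96), no window but reads in every library (53), and without all libraries of CastB6 (124), MolfB6 (126), PwkB6 (96) or SpretB6 (124). With 1 library left out 121 to 188 were shared. The median SD, 0.101, was 0.116 under TMM, 0.119 with DESeq2 size factors, 0.123 by SD within crosses, 0.122 by median absolute deviation, 0.116 in the window 4 to 6, 0.0838 with no window, 0.115 for the 400 lowest, 0.0791 without all PwkB6 libraries, and 0.0873 to 0.103 with 1 library left out. The median length was 4454 bases under TMM, 4652 with DESeq2 size factors, 2340 on TPM, 1562 with no window, 2593 without all PwkB6 libraries and 2689 to 3318 with 1 library left out. The 200 taken with no window had a median level of -0.775 on the log2 scale, near the floor that the pseudocount sets. Their SD and length thus describe mostly transcripts with few reads. The share between crosses was 71.8% by SD within crosses, 21.3% without all CastB6 libraries and 29.6% to 38.2% with 1 library left out. Apart from the ranges, each of these medians of SD, length and share between crosses differed from its value in the report by more than a jackknife error over libraries. The SD within crosses sets no limit on differences between crosses, so that rule does not hold down its share of 71.8%. Causes of these changes were not tested.

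Members called in the joint test numbered 41 under DESeq2 and 2 with no filter; in CastB6 35, 4 and, with library totals, 1; in MolfB6 5 under DESeq2 and 1 with totals; in PwkB6 22 under DESeq2, 0 with no filter and 0 with totals; in SpretB6 6 under DESeq2 and 4 with totals. DESeq2 called 19.4% of all transcripts tested in the joint test. With 1 library left out the ranges were 3 to 10, 2 to 16, 0 to 1, 0 to 5 and 0 to 5 for the joint test, CastB6, MolfB6, PwkB6 and SpretB6. With the replicate block 3 members were called jointly, 4 in CastB6 and 0 in PwkB6, where 6.31%, 3.18% and 1.89% of all transcripts tested were called; with no filter these shares were 4.57%, 2.06% and 1.36%. Deviations correlated above 0.1 in 1 of 21 same-numbered pairs of libraries and in 5 of 75 other pairs. Of the 16 libraries, 5 correlated best with their own number. The labels do not say what the numbers mean, so these values cannot decide whether equal numbers share a batch. The spread in a cross left out, with 1 library removed, ran from 0.0800 to 0.0957 in CastB6, 0.0710 to 0.0977 in MolfB6, 0.0943 to 0.181 in PwkB6 and 0.0623 to 0.0815 in SpretB6. The values without PwkB6 6 on TMM, on TPM and by length class were added after seeing the data. Depth, a mean of 526.2 to 7773 reads per library in a member, limits the members at the low end. These lay nearest to counting error, where the limit on the SD keeps the ratio low.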
